A study of Mus musculus with 15 samples.

Results

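The genes described here are 39 genes of lysosomal proteases and hydrolases and their close partners, out of 19938 genes measured on the arrays. They come from a list of symbols drawn up with earlier results of these data known: 10 cathepsins, legumain and the thiol reductase Ifi30, glycosidases, lipid and acyl hydrolases, membrane proteins and cholesterol carriers of the lysosome, and the regulator Tfeb. The list uses symbols only and no cut on a measured value. Each of the 39 genes was read by exactly 1 probe set that names no other gene, and all 39 were tested.

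Cells were sorted from mouse bone marrow at 2 stages, and RNA was hybridised to Affymetrix arrays. The earlier stage is the common dendritic cell progenitor (CDP), from which both plasmacytoid and classical dendritic cells descend. The later stage is a c-Kit-intermediate population that carries the Zbtb46-GFP reporter, whose gene marks commitment to the classical lineage. Each stage was taken from WT cells of Zbtb46-GFP chimeric mice, from Id2 KO cells of Zbtb46-GFP chimeric mice, and from Batf3 KO Zbtb46-GFP mice, so the reporter is named for all 3 genotypes. The Batf3 KO label names no chimera, so that kind of animal and that genotype cannot be told apart. The labels give no ages, and they do not say whether replicates came from separate animals. The p-values therefore measure the spread between these samples, which may be technical. Batf3 is a transcription factor on which cDC1 cells depend. Id2 binds E proteins, drivers of the plasmacytoid fate, and keeps them off DNA. The design asks which genes change between the stages and what the loss of either factor does to them.

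There were 15 arrays, 2 per genotype for CDPs and 3 per genotype for Zbtb46-GFP+ cells. Replicate 1 of each Zbtb46-GFP+ group lay on another scale, where the median signal was 23.8 to 24.1, while the remaining 12 arrays had medians of 100.8 to 112.1. Between pairs of these 3 arrays, 59.4% to 71.7% of probe sets held identical values. Values and tests below therefore come from the 12 arrays, 2 per group, and the 3 arrays are given beside them where they bear on a result. The labels were checked first. The Batf3 mean was 9.92 log2 units in WT Zbtb46-GFP+ cells and 7.10 in Batf3 KO, against 7.05 to 7.14 in the 3 CDP groups. Id2 read 11.74 in WT and 8.61 in Id2 KO Zbtb46-GFP+ cells. In CDPs it read 7.54 in WT, 7.79 in Batf3 KO and 6.52 in Id2 KO. Id2 signal thus rose by 2.09 in the Id2 KO step (limma adjusted p = 0.00259) and lay above the CDP level there. Zbtb46 itself rose by 1.08 in the WT step (limma adjusted p = 0.000636), but the steps of 0.15 in Batf3 KO and 0.20 in Id2 KO did not pass (0.739 and 0.656). The summed signal of 9 markers of the later stage was 53360 to 59046 in WT, 47497 to 50580 in Batf3 KO and 40276 to 44022 in Id2 KO Zbtb46-GFP+ cells, against 3942 to 5556 in CDPs. The markers were Zbtb46, Flt3, Itgax, Cd74, H2-Aa, H2-Ab1, H2-Eb1, Id2 and Batf3. They include both deleted genes, so part of the lower knockout sums was fixed in advance. Flt3 and Itgax had higher means in Id2 KO (11.61 and 12.03) than in WT Zbtb46-GFP+ cells (11.45 and 11.51).

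Lysosomes are acidic compartments in which proteases, glycosidases, lipases and thioesterases break down what a cell takes up or turns over. In dendritic cells the same enzymes cut the invariant chain Cd74 from MHC class II molecules and cut antigens into peptides for loading, so a cell that digests too hard destroys the peptides it should present. Many lysosomal genes carry an E-box in their promoters that Tfeb and its relatives can bind, the CLEAR element. E proteins, which Id2 holds back, bind E-boxes with another core.

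Promoter sequences are shown for the genes on which the results turn. RefSeq's table for GRCm38.p6 gave promoters, 250 bases before to 50 bases after the start, for 33 of the 39 genes. Ctsb, Ctse, Ctsh, Asah1, Npc1 and Plbd2 had no entry. The hexamer CACGTG, the core of the CLEAR element, reads the same on both strands and was present in 11 of the 33 genes (33.3%), against 8.09% of all 27025 genes in the table. The full element, in which GT precedes and AC follows the hexamer, was in none of the 33 and in 0.37% of all genes. The windows below show the hexamer in capitals with 10 bases on each side, on the gene's strand, for 5 genes that were lower in WT Zbtb46-GFP+ cells than in CDPs (Ctsd, Lgmn, Glb1, Gaa and Lamp1), for 2 that were higher (Ifi30 and Plbd1) and for Ctsl, which was higher in Id2 KO than in WT Zbtb46-GFP+ cells. The Plbd1 window ends with the table's entry, after the gene's start. A single window is shown per gene. The Ctsd promoter also held the hexamer 245 bases before the start, and the Lamp1 promoter 61, 45 and 15 bases before it.
Ctsd, chr7:142387910-142387935, minus strand: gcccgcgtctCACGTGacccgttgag
Lgmn, chr12:102439126-102439151, minus strand: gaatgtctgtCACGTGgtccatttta
Glb1, chr9:114401020-114401045, plus strand: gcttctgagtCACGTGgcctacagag
Gaa, chr11:119267813-119267838, plus strand: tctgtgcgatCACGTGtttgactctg
Lamp1, chr8:13159123-13159148, plus strand: tgccgactggCACGTGaccacatcac
Ctsl, chr13:64370741-64370766, minus strand: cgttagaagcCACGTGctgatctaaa
Ifi30, chr8:70766844-70766869, minus strand: ccaaaaacttCACGTGaccagacatg
Plbd1, chr6:136661844-136661860, minus strand: ttcccaaggcCACGTGa

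Ppt1 and Naaa were the 2 genes whose rise differed between genotypes by the interaction test, and their 250 bases before the start are shown for that reason. Capitals mark CAGCTG, one of the 2 E-protein cores searched after the values were seen. It lay 210 bases before the start of Ppt1. The Naaa stretch held none of the motifs searched.
Ppt1, chr4:122835977-122836226, plus strand: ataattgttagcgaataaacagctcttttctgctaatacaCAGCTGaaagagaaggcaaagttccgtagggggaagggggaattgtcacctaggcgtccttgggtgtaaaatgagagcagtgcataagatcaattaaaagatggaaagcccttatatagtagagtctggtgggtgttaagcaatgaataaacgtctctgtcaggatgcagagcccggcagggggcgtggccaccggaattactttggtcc
Naaa, chr5:92278182-92278431, minus strand: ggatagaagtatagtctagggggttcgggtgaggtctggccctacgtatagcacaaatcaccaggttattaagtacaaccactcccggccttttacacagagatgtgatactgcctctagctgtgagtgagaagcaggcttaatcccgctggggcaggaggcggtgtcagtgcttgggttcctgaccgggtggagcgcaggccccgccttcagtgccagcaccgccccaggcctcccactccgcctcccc

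The first comparison asked which of the 39 genes change between the stages, a change called the step below. In WT, 18 of 39 changed at an adjusted p under 0.05 (limma, Benjamini-Hochberg over all genes), against 11.1% of all genes. Of these, 11 rose, where 4.71% of all genes did, and 7 fell, where 6.38% did. The median log2 change of the 39 was 0.02 and that of all genes 0.03, with 20 of the 39 above 0. The lipid hydrolases Plbd1, Naaa and Ppt1 and the thiol reductase Ifi30 rose most, and the aspartic protease Ctsd fell most. With each array centred on its 75th percentile, 14 rose and 5 fell, and the median over all genes moved by 0.11 to 0.14. Without WT CDP replicate 1 the count was 11.

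**Figure D1:**
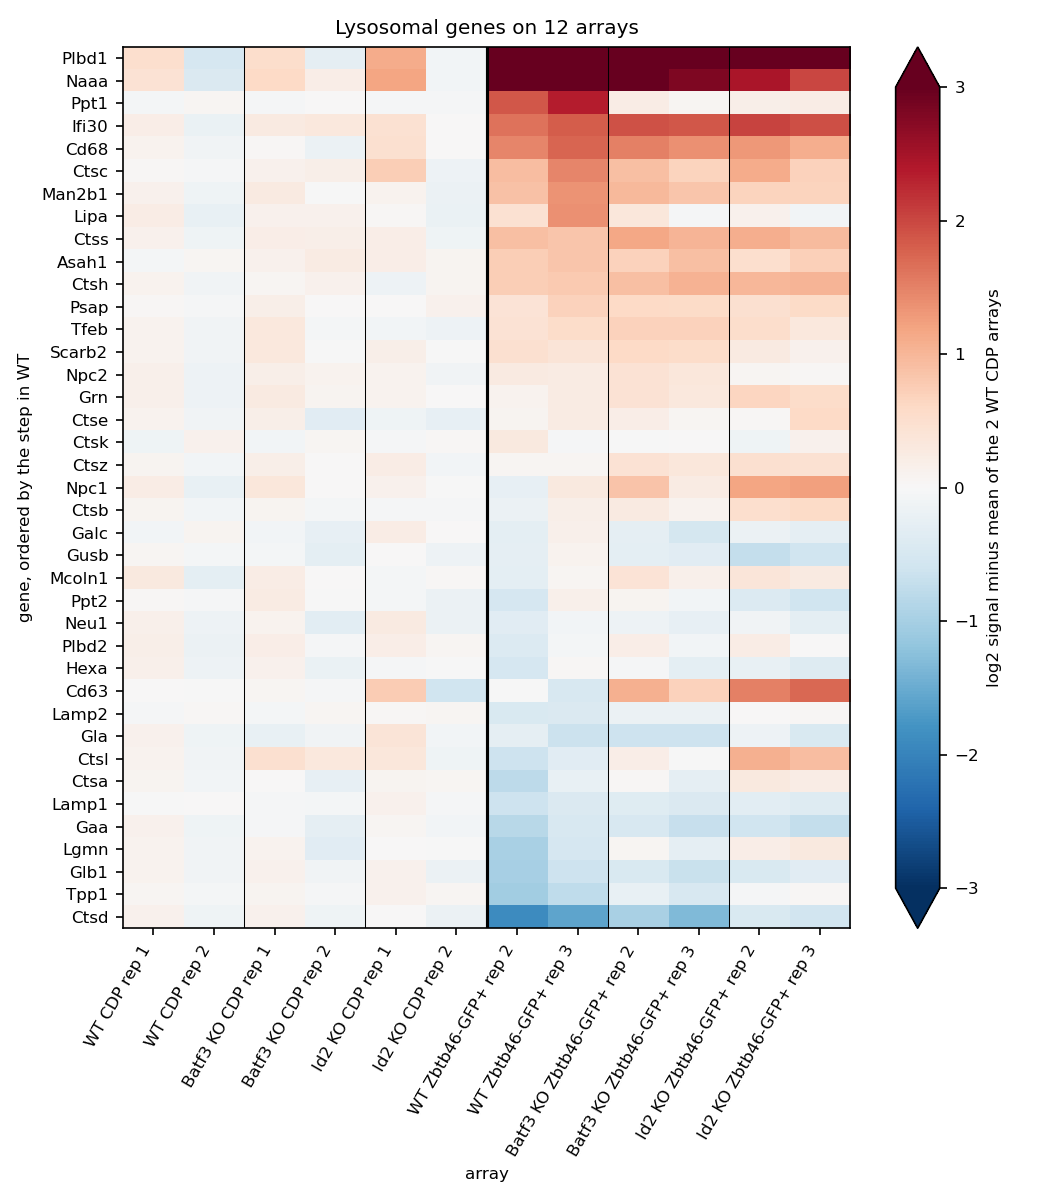
Heat map of the 39 genes (rows, ordered by the WT step) on 12 arrays (columns), coloured by log2 signal minus the mean of the 2 WT CDP arrays, with colours limited at 3 log2 units either way. The CDP columns are near 0 for most genes, while Plbd1 and Naaa are dark red in Zbtb46-GFP+ arrays and Ppt1 is red in the 2 WT Zbtb46-GFP+ arrays alone.

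In the knockouts the same step held mostly rises. In Batf3 KO, 9 of 39 genes changed, against 7.18% of all genes. Of these, 8 rose, where 3.87% of all genes did, and 1 fell, where 3.32% did. In Id2 KO, 14 changed, against 6.82% of all genes. Of these, 12 rose, where 3.84% of all genes did, and 2 fell, where 2.98% did. The median change of the 39 was 0.16 in Batf3 KO and 0.26 in Id2 KO, against 0.01 over all genes in both. The Id2 KO count rests on each of its arrays: it was 9 without CDP replicate 1, 4 without CDP replicate 2, 4 without Zbtb46-GFP+ replicate 2 and 5 without Zbtb46-GFP+ replicate 3. Cd68, Ctsh, Ctss, Ifi30, Man2b1, Naaa and Plbd1 passed as higher in all 3 genotypes, and no gene passed as lower in all 3. Ctsd, Lamp1, Gaa and Gla did read lower after the step in each genotype, at an unadjusted p under 0.05 in limma. The shares of all genes that did the same in all 3 genotypes were not counted, so these overlaps have no background beside them.

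Among the proteases that act on antigen and invariant chain, Ctss, Ctsh and the reductase Ifi30 rose in every genotype. Ctss (probe set 10494271) is the cathepsin that makes the last cuts in the invariant chain. It read 11.23 and 10.96 log2 units in WT CDPs and 12.01 and 11.93 in WT Zbtb46-GFP+ cells, a rise of 0.87 (SE 0.15, adjusted p = 0.0031, limma). In Batf3 KO it read 11.31 and 11.28 before and 12.25 and 12.12 after, and in Id2 KO 11.29 and 10.97 before and 12.19 and 12.05 after. The stages did not overlap in any genotype, with rises of 0.90 (adjusted p = 0.00375) and 0.99 (adjusted p = 0.00227).

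Ctsh (10587733), an aminopeptidase, went from 11.17 and 10.97 to 11.80 and 11.85 in WT. It went from 11.12 and 11.21 to 11.98 and 12.11 in Batf3 KO and from 10.91 and 11.15 to 12.06 and 12.09 in Id2 KO. The limma rises were 0.75 (adjusted p = 0.00368), 0.88 (0.00204) and 1.04 (0.000888), each with SE 0.13. Ifi30 (10579347) opens disulfide bonds so that folded antigens can be cut. Its 6 CDP arrays lay between 10.21 and 10.87 and its 6 Zbtb46-GFP+ arrays between 12.06 and 12.45, so no array of one stage reached the other. It rose 3.31-fold in WT, 3.02-fold in Batf3 KO and 3.38-fold in Id2 KO (limma adjusted p = 0.000107, 0.00033 and 0.000224).

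Ctsc (10554789), the dipeptidyl peptidase that activates granule serine proteases, rose in WT from 9.06 and 8.98 to 9.95 and 10.48. The change was 1.19 (SE 0.27, limma adjusted p = 0.0143). It lost its call without WT CDP replicate 1 (adjusted p = 0.0679), WT CDP replicate 2 (0.0662) or WT Zbtb46-GFP+ replicate 3 (0.102). In Batf3 KO its arrays went from 9.15 and 9.19 to 9.92 and 9.69, and in Id2 KO from 9.75 and 8.87 to 10.13 and 9.72. Those differences of 0.63 and 0.62 did not pass (limma adjusted p = 0.229 and 0.259), and in Id2 KO the stages overlapped.

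The lipid and acyl hydrolases held the largest rises. Plbd1 (10548817), a phospholipase B-like enzyme, read 8.19 and 7.17 in WT CDPs and 13.27 and 13.41 in WT Zbtb46-GFP+ cells. Its Batf3 KO arrays read 8.21 and 7.42 before and 12.79 and 12.95 after, and its Id2 KO arrays 8.80 and 7.59 before and 12.55 on both arrays after. Every Zbtb46-GFP+ array lay over 3 log2 units above every CDP array of the 3 genotypes. The rise was 50.5-fold in WT, 33.2-fold in Batf3 KO and 20.4-fold in Id2 KO (limma adjusted p = 8.15e-06, 3.36e-05 and 0.000126). In Zbtb46-GFP+ cells the differences from WT were -0.47 in Batf3 KO and -0.79 in Id2 KO, neither past the test (limma adjusted p = 1 and 0.632; 95% intervals -1.35 to 0.40 and -1.67 to 0.08).

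Naaa (10531370) is the acid amidase that breaks down palmitoylethanolamide. It read 8.31 and 7.45 in WT CDPs, 8.47 and 8.07 in Batf3 KO CDPs and 9.07 and 7.80 in Id2 KO CDPs. In Zbtb46-GFP+ cells it read 12.60 and 12.84 in WT, 11.03 and 10.69 in Batf3 KO and 10.33 and 9.88 in Id2 KO. The CDP groups overlapped, and the Zbtb46-GFP+ groups lay apart in the order WT, Batf3 KO, Id2 KO. The rise was 28.7-fold in WT (limma log2 4.84, SE 0.38, adjusted p = 1.83e-05), 6.01-fold in Batf3 KO (adjusted p = 0.00185) and 3.18-fold in Id2 KO (adjusted p = 0.0235).

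In Zbtb46-GFP+ cells Naaa was lower in Id2 KO than in WT (log2 -2.62, 6.14-fold, limma adjusted p = 0.00501), and the Batf3 KO difference of -1.86 did not pass (adjusted p = 0.103). The Id2 KO step itself differed from the WT step by -3.18 (SE 0.54, adjusted p = 0.0368 for the interaction). This interaction lost its call without any of 6 of its 8 arrays, all but WT CDP replicate 1 and Id2 KO CDP replicate 2 (adjusted p = 0.0659 to 0.173). The fall against WT was lost without Id2 KO Zbtb46-GFP+ replicate 3 (0.0686). The Id2 KO step was lost without Id2 KO CDP replicate 2 (1.03, adjusted p = 0.119) or either Id2 KO Zbtb46-GFP+ array (0.191 and 0.0704), and at 1.31 (0.0889) with all 15 arrays and a term for the 3. On the replicate 1 arrays, which share their own scale, Naaa differed from WT by -1.84 in Batf3 KO and by -4.21 in Id2 KO.

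Ppt1 (10507784) showed another pattern. It encodes the thioesterase that removes fatty acyl groups from cysteines of proteins under degradation, and its loss causes a childhood form of neuronal ceroid lipofuscinosis. It read 9.96 and 10.08 in WT CDPs, 9.98 and 10.04 in Batf3 KO CDPs and 9.99 and 9.98 in Id2 KO CDPs. In Zbtb46-GFP+ cells it read 11.89 and 12.37 in WT, 10.24 and 10.07 in Batf3 KO and 10.20 and 10.25 in Id2 KO. The 2 WT arrays stood apart and all 10 others lay between 9.96 and 10.25.

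Ppt1 rose 4.33-fold in WT (limma log2 2.11, SE 0.16, adjusted p = 1.21e-05). In Batf3 KO the difference was 0.14 (95% interval -0.20 to 0.49, adjusted p = 0.799), and in Id2 KO 0.23 (-0.11 to 0.58, adjusted p = 0.591). In Zbtb46-GFP+ cells it was lower than in WT by log2 -1.98 in Batf3 KO (3.94-fold, adjusted p = 0.00013) and -1.91 in Id2 KO (3.76-fold, adjusted p = 0.000125). The interactions were -1.97 (adjusted p = 0.00648) and -1.88 (adjusted p = 0.00548). Only the interaction of Batf3 KO was lost on leaving out an array, Batf3 KO CDP replicate 2 (adjusted p = 0.0615). On the replicate 1 arrays the differences from WT were -1.28 in Batf3 KO and -1.09 in Id2 KO. The 2 knockouts differed by 0.07 (95% interval -0.28 to 0.42).

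**Figure D2:**
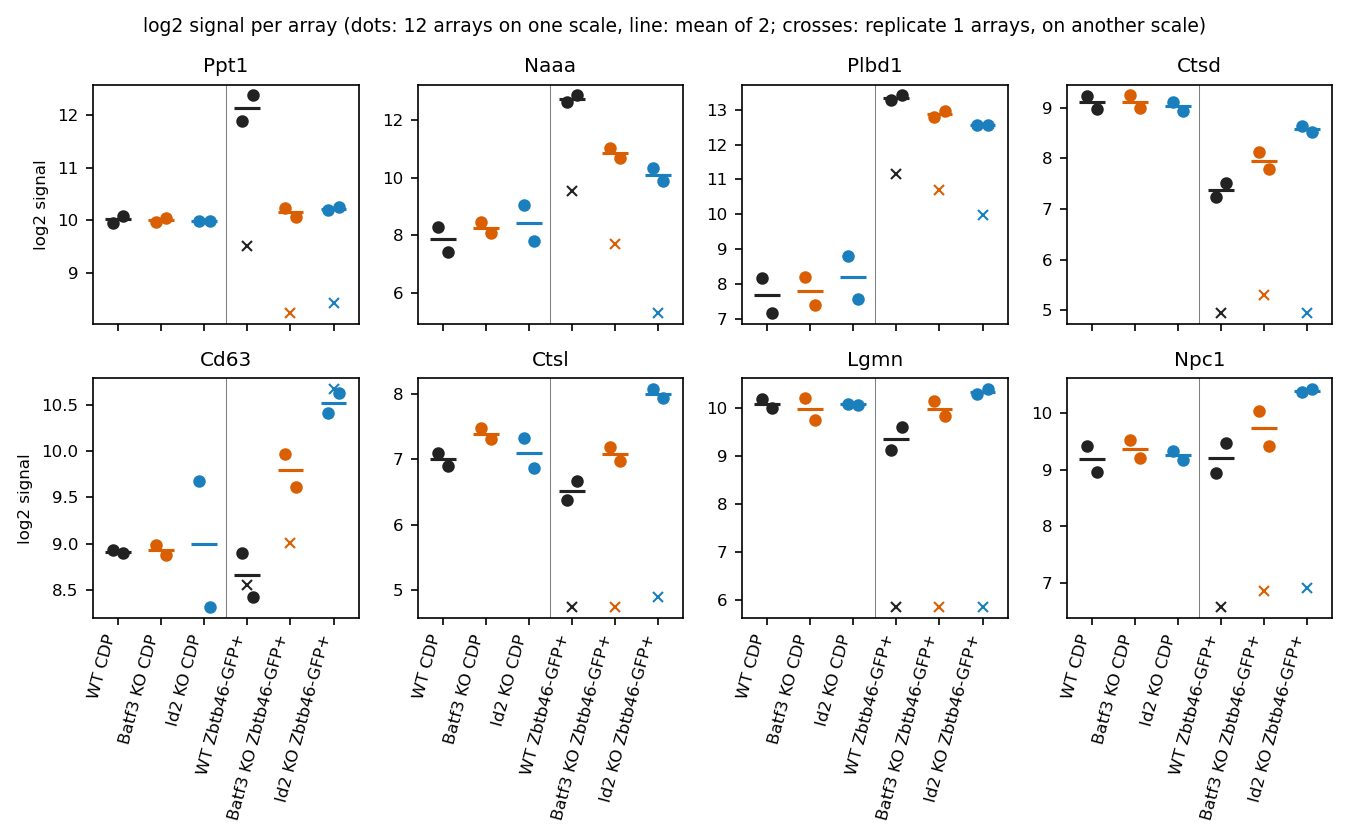
Log2 signal of 8 genes per array, by group. Dots are the 12 arrays on one scale, lines the mean of 2 arrays, and crosses the 3 replicate 1 arrays on another scale. Ppt1 is near 10 in all groups but WT Zbtb46-GFP+ cells, where it is 11.89 and 12.37, and Cd63 and Ctsl have their highest dots in Id2 KO Zbtb46-GFP+ cells.

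The other lipid hydrolases moved less. Asah1 (10578361), acid ceramidase, rose from 10.26 and 10.37 to 11.06 and 11.14 in WT (0.79, limma adjusted p = 0.00298). In Batf3 KO it rose from 10.45 and 10.55 to 11.00 and 11.22 (0.61, adjusted p = 0.0178), a call lost under 75th-percentile centring (0.0688) and without Batf3 KO CDP replicate 1 (0.149), CDP replicate 2 (0.067) or Zbtb46-GFP+ replicate 3 (0.174). In Id2 KO the arrays went from 10.50 and 10.40 to 10.82 and 11.03 and did not pass (0.47, adjusted p = 0.0629). Psap, the precursor of the saposins that present lipids to hydrolases, rose by 0.56 in WT (adjusted p = 0.0215). Psap lost its call without either WT CDP array (0.0775 and 0.0965) or WT Zbtb46-GFP+ replicate 3 (0.136). Lipa, the acid lipase for cholesteryl esters, read 9.09 and 10.01 in WT Zbtb46-GFP+ cells against 8.87 and 8.41 in CDPs, a difference of 0.91 that missed the threshold (adjusted p = 0.0537).

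Among membrane proteins and glycosidases, 2 genes rose and 4 fell in the WT step. Cd68 (10387536), the heavily glycosylated membrane protein used as a macrophage marker, rose from 9.02 and 8.83 to 10.38 and 10.68 in WT. It rose from 8.96 and 8.74 to 10.43 and 10.29 in Batf3 KO and from 9.40 and 8.94 to 10.23 and 10.02 in Id2 KO. The changes were 1.60, 1.51 and 0.96 (limma adjusted p = 0.000198, 0.000543 and 0.0085). The Id2 KO call was lost without Id2 KO CDP replicate 2 (0.0553) or Zbtb46-GFP+ replicate 2 (0.0944).

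Man2b1 (10573583), the acid alpha-mannosidase, rose from 10.97 and 10.73 to 11.73 and 12.21 in WT (1.12, limma adjusted p = 0.00234). In Batf3 KO it went from 11.12 and 10.84 to 11.83 and 11.69 (0.78, adjusted p = 0.025), and in Id2 KO from 10.96 and 10.68 to 11.52 on both arrays (0.70, adjusted p = 0.0439). The 2 knockout calls were each lost without any 1 of the 4 arrays compared (adjusted p = 0.0603 to 0.178 and 0.0734 to 0.21). Sums of macrophage markers also moved with the step, though not every gene did. The 10 markers of lysosome-rich macrophages summed to 576 to 607 in CDPs, 865 to 997 in WT, 1049 to 1337 in Batf3 KO and 845 to 856 in Id2 KO Zbtb46-GFP+ cells. Of these, 0 to 1 of 10 read above the array's median in CDPs and 2 to 4 in Zbtb46-GFP+ cells. All but Vsig4 (4.55 before and 4.53 after) had a higher mean log2 signal after the WT step. In Zbtb46-GFP+ cells Adgre1 had a mean of 7.34 in WT and 8.90 in Batf3 KO, while Vcam1, C1qa, C1qb, C1qc and Spic read lower in Batf3 KO. A wider list of 11 monocyte and macrophage genes summed to 8254 to 10109 in CDPs and 9149 to 10420 in Zbtb46-GFP+ cells. From that list F13a1 (11.51 before and 7.38 after), Csf1r (11.14 and 9.11) and Cd14 (6.83 and 6.75) had lower means after the WT step, and the others higher ones. The part of such cells in the rises of the lysosomal genes was not tested, and in sorted bulk RNA fewer cells of a type and less RNA per cell cannot be told apart.

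Ctsd (10569319), the main aspartic protease of lysosomes, had the largest fall. In CDPs it read 9.24 and 8.98 in WT, 9.25 and 8.99 in Batf3 KO and 9.12 and 8.94 in Id2 KO. In Zbtb46-GFP+ cells it read 7.23 and 7.52 in WT, 8.14 and 7.78 in Batf3 KO and 8.64 and 8.53 in Id2 KO. All Zbtb46-GFP+ arrays lay below all CDP arrays, WT lowest and Id2 KO highest. Ctsd fell 3.33-fold in WT (limma log2 -1.73, SE 0.17, adjusted p = 8.28e-05) and 2.23-fold in Batf3 KO (adjusted p = 0.00188), and the Id2 KO difference of -0.44 did not pass (adjusted p = 0.188).

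The peptidases Tpp1 and Lgmn also fell in WT. Tpp1 (10566529), which trims tripeptides from protein ends, went from 8.26 and 8.12 to 7.14 and 7.44 (-0.90, limma adjusted p = 0.00227). In Batf3 KO it went from 8.26 and 8.15 to 7.97 and 7.70, and in Id2 KO from 8.32 and 8.25 to 8.15 and 8.22, neither past the test. Lgmn (10402268), the endopeptidase that cuts after asparagine and starts the digestion of some antigens, went from 10.19 and 10.00 to 9.12 and 9.60 in WT (-0.73, adjusted p = 0.0351). Its fall lost the call without WT CDP replicate 1 (-0.64, 0.215), WT CDP replicate 2 (-0.83, 0.0676) or WT Zbtb46-GFP+ replicate 2 (-0.49, 0.234), and at -0.55 (0.147) with 15 arrays and a term. The stages overlapped for Lgmn in Batf3 KO, at 10.21 and 9.76 before and 10.15 and 9.83 after.

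The glycosidases Glb1 and Gaa and the structural membrane proteins Lamp1 and Lamp2 fell in WT by smaller amounts. Glb1 (10589889), beta-galactosidase, went from 9.22 and 9.01 to 8.13 and 8.50 (-0.80, limma adjusted p = 0.0115). Gaa (10383088), the glucosidase that degrades glycogen, went from 9.19 and 8.95 to 8.24 and 8.59 (-0.66, adjusted p = 0.0236). Both calls were lost without WT CDP replicate 1 (0.0994 and 0.184) or WT Zbtb46-GFP+ replicate 2 (0.084 and 0.158). Gaa also fell in Id2 KO, from 9.13 and 8.98 to 8.47 and 8.36 (-0.64, adjusted p = 0.0376), a call lost without any 1 of the 4 arrays (0.073 to 0.239) and with an intensity trend in limma (0.0564).

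Lamp1 (10570344) read 10.50 and 10.54 in WT CDPs and 9.90 and 10.08 in WT Zbtb46-GFP+ cells (-0.53, limma adjusted p = 0.0178). Its other CDP arrays lay between 10.47 and 10.65 and its knockout Zbtb46-GFP+ arrays between 10.08 and 10.19, differences that did not pass (adjusted p = 0.133 and 0.0827). Lamp2 fell by 0.44 in WT (adjusted p = 0.0288). Under 75th-percentile centring both lost their calls, Lamp1 at -0.42 (adjusted p = 0.116) and Lamp2 at -0.33 (0.354). Lamp1 was also lost without either WT CDP array (0.0791 and 0.0774) or WT Zbtb46-GFP+ replicate 2 (0.106), and Lamp2 without any 1 of the 4 (0.081 to 0.112).

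**Figure D3:**
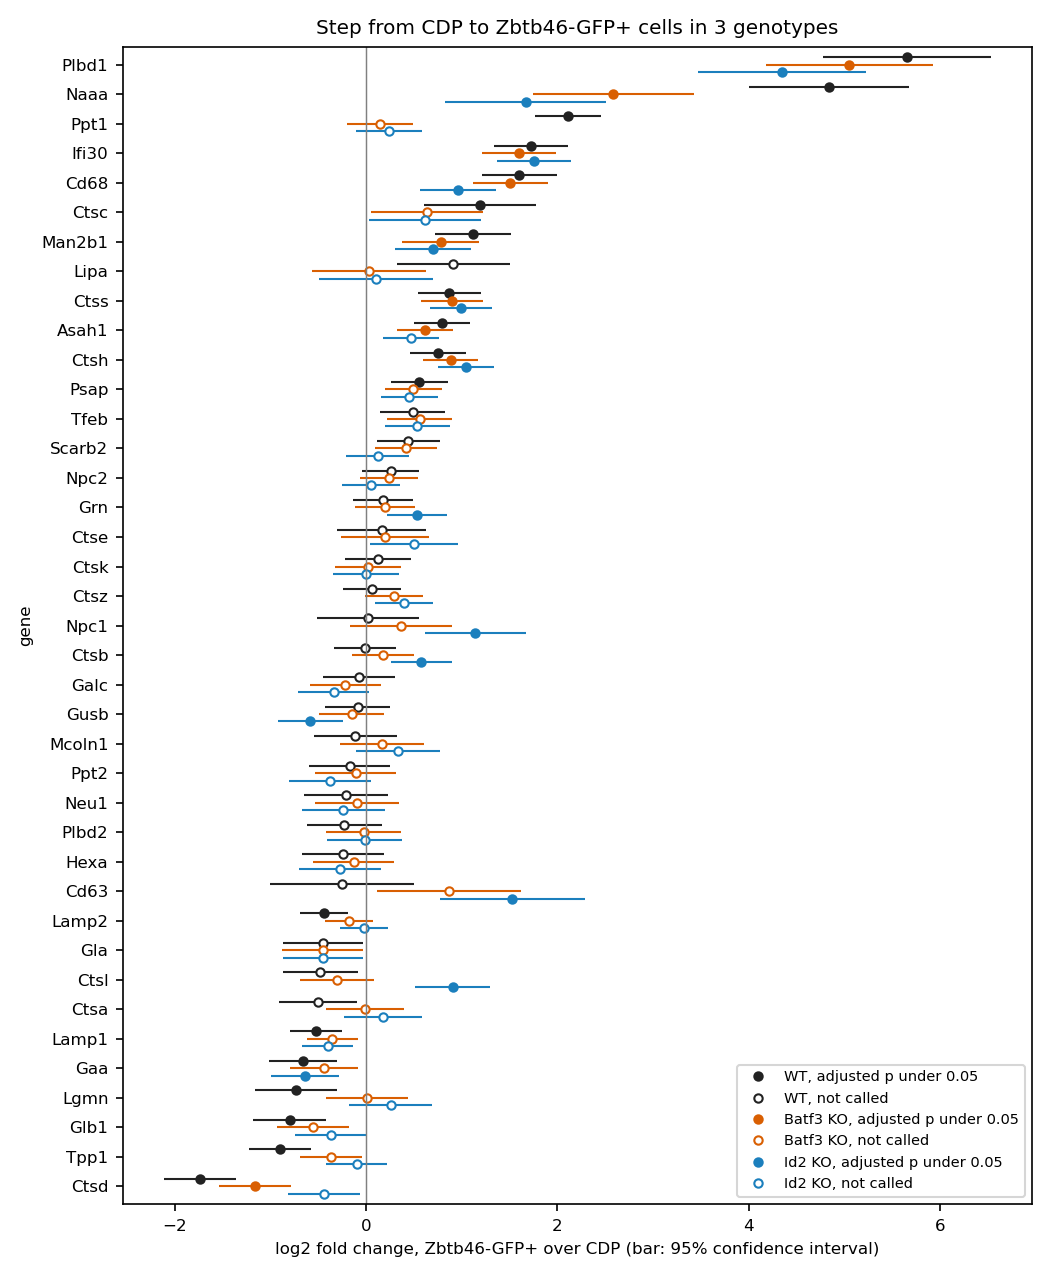
Log2 fold change of the step from CDPs (x axis) for each of the 39 genes (rows) in WT, Batf3 KO and Id2 KO, with 95% confidence intervals as bars and filled dots for an adjusted p under 0.05. WT dots reach from -1.73 for Ctsd to 5.66 for Plbd1, and for Ppt1 only the WT dot is away from 0.

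The E-box hexamer shown above was unevenly placed among these genes. It was present in 5 of the 7 genes that fell in WT, 2 of the 9 with a promoter entry that rose, and 4 of the 17 that did neither. Over the 11 genes with it, the median WT change was -0.51 and 9 were below 0. Over the 22 without it, the median was 0.22 and 8 were below 0. This is a description of 33 genes without a test, and a match of letters is not a binding site. Of the genes with the hexamer that fell, Lgmn, Glb1, Gaa and Lamp1 lost their calls without single arrays, as given above.

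Among motifs added after the values were seen, GTCACGTG was in 8 of the 33 (24.2%, against 2.55% of all genes), and the AP-1 letters TGANTCA, the kind of site Batf3 binds, in 4 (12.1%, against 8.97%). The E-protein cores CAGCTG and CAGGTG, searched on both strands, were in 10 (30.3%, against 18.3%) and 8 (24.2%, against 22.6%). CAGCTG was also uneven, in 4 of the 7 genes that fell in WT, 3 of the 9 that rose and 3 of the 17 that did neither. GTCACGTG contains CACGTG, so those matches overlap.

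**Figure D4:**
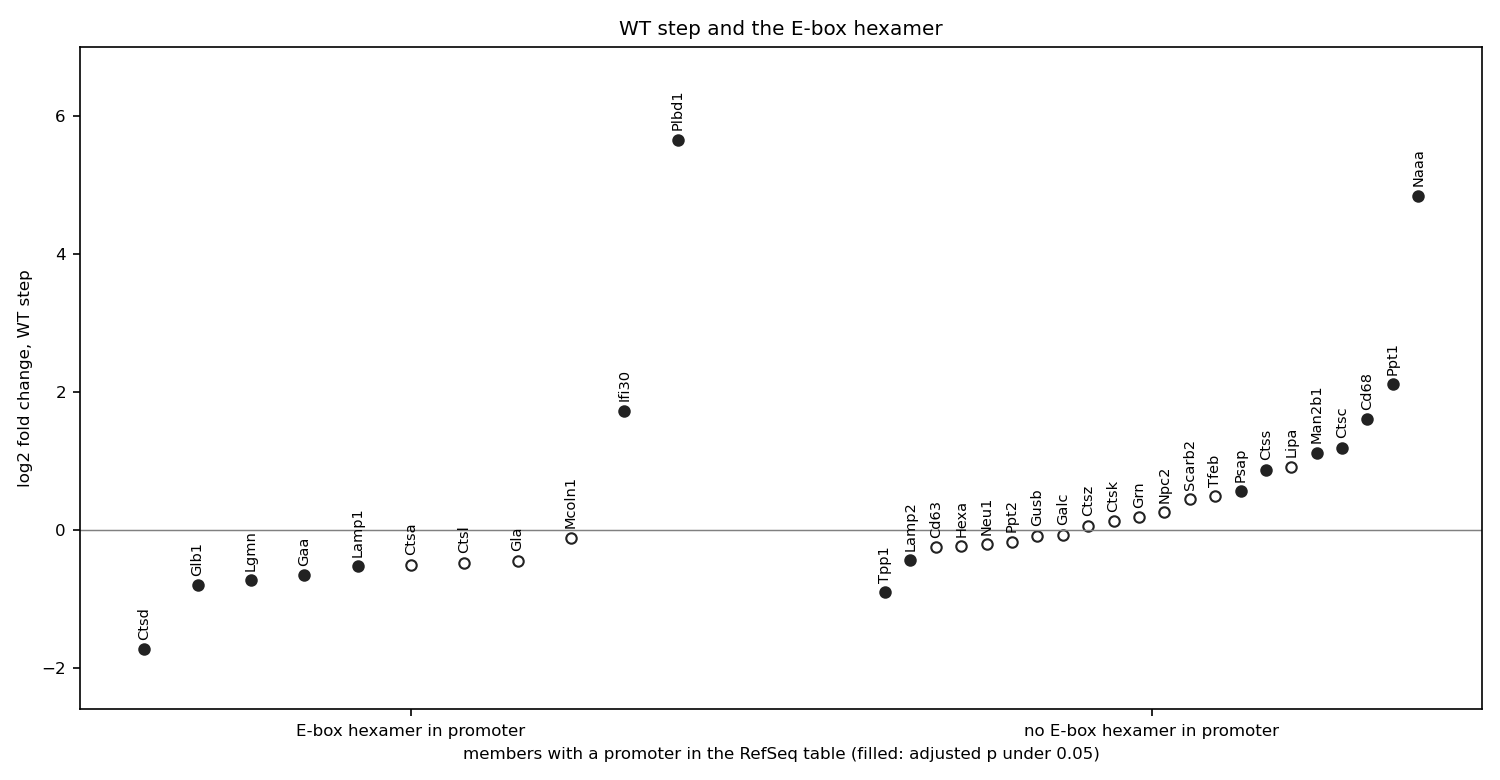
Log2 fold change of the WT step (y axis) of the 33 genes with a promoter entry, split by the presence of the hexamer CACGTG and ordered by change within each side. Filled dots have an adjusted p under 0.05. On the side with the hexamer, 9 of 11 dots lie below 0, with Ifi30 and Plbd1 above it.

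Tfeb (10445729), the regulator named for such elements, did not pass in any genotype. It read 7.89 and 7.67 in WT CDPs and 8.20 and 8.33 in WT Zbtb46-GFP+ cells. In Batf3 KO it read 8.10 and 7.71 before and 8.46 on both arrays after, and in Id2 KO 7.69 and 7.63 before and 8.30 and 8.09 after. The stages did not overlap in any genotype, with differences of 0.49, 0.56 and 0.53 (limma adjusted p = 0.0697, 0.0539 and 0.066). The WT difference passed with 15 arrays and a term (0.50, adjusted p = 0.0261) and under 75th-percentile centring (0.60, adjusted p = 0.023). It did not pass with an intensity trend, with the mean of all probe sets or without dim genes. With single arrays left out it ran from 0.38 to 0.60. A block for the 2 sets of arrays described at the end gave 0.49 (adjusted p = 0.00666), but those sets were formed from these same values.

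The next comparison set each knockout against WT in Zbtb46-GFP+ cells. Both use the same 2 WT arrays, so their values are given side by side and not counted together. In Batf3 KO, Ppt1 alone of the 39 changed, against 0.336% of all genes, 0.11% higher and 0.226% lower. In Id2 KO, 8 of 39 changed (6 higher, 2 lower), against 1.81% of all genes, 1.09% higher and 0.717% lower. The median over the 39 was 0.13 in Batf3 KO and 0.15 in Id2 KO, against 0.01 and -0.02 over all genes. The 6 that rose in Id2 KO were Cd63, Ctsl, Ctsd, Npc1, Lgmn and Tpp1, and the 2 that fell were Naaa and Ppt1. Without Id2 KO Zbtb46-GFP+ replicate 2 or replicate 3 the count was 3.

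**Figure D5:**
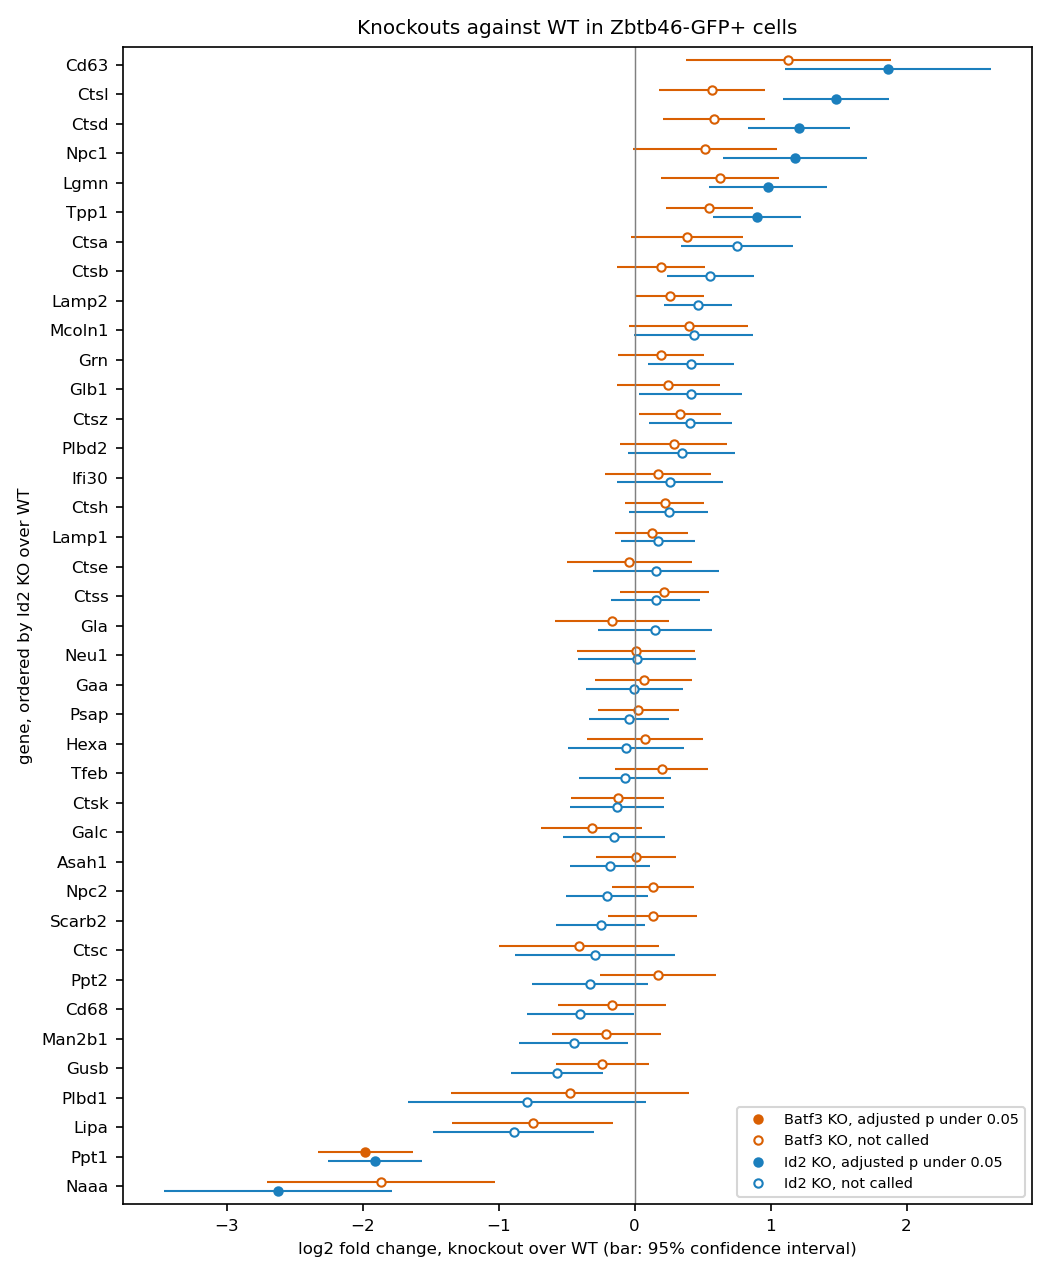
Log2 fold change of each knockout over WT in Zbtb46-GFP+ cells (x axis) for the 39 genes (rows, ordered by Id2 KO), with 95% confidence intervals and filled dots for an adjusted p under 0.05. Both series share the WT arrays. Cd63 has the highest Id2 KO dot at 1.86, and Naaa and Ppt1 lie lowest, at -2.62 and -1.91 in Id2 KO.

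Ctsl (10410124), a cysteine protease that degrades the invariant chain in some cell types, was the 1 of the 6 whose call was kept with each array left out. It read 6.37 and 6.66 in WT, 7.19 and 6.98 in Batf3 KO and 8.07 and 7.93 in Id2 KO Zbtb46-GFP+ cells, against 6.86 to 7.47 in the CDP arrays. The 3 genotypes did not overlap at the later stage. In Id2 KO it rose 2.79-fold over WT (limma log2 1.48, SE 0.18, adjusted p = 0.00153 and, with single arrays left out, at most 0.0284). On the replicate 1 arrays the difference was only 0.16. Within Id2 KO it rose by 0.90 from CDPs (adjusted p = 0.0109), lost without Id2 KO CDP replicate 2 (0.0693), Zbtb46-GFP+ replicate 2 (0.103) or Zbtb46-GFP+ replicate 3 (0.0539), and with 15 arrays and a term (0.67, 0.135). In WT the step was -0.48 (adjusted p = 0.124), and the interaction of 1.38 just missed the threshold (adjusted p = 0.0527). With a block for the 2 sets of arrays, which were formed from these same values, the WT step had an adjusted p of 0.00569.

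Cd63 (10367436) is a tetraspanin of late endosomes, lysosomes and secretory granules. It read 8.90 and 8.42 in WT, 9.97 and 9.61 in Batf3 KO and 10.42 and 10.63 in Id2 KO Zbtb46-GFP+ cells. In CDPs it read 8.93 and 8.90 in WT, 8.98 and 8.88 in Batf3 KO and 9.68 and 8.31 in Id2 KO, so the 2 Id2 KO CDP arrays were far apart. Id2 KO was 3.64-fold above WT (limma adjusted p = 0.0185), lost without WT Zbtb46-GFP+ replicate 3 (0.122), Id2 KO replicate 2 (0.112) or Id2 KO replicate 3 (0.167). The rise from Id2 KO CDPs was 1.53 (adjusted p = 0.0214), or 0.84 (0.0599) without Id2 KO CDP replicate 2, and it was also lost without either Id2 KO Zbtb46-GFP+ array (0.0977 and 0.149). On the replicate 1 arrays Cd63 read 0.45 above WT in Batf3 KO and 2.12 above in Id2 KO. In Batf3 KO on the 12 arrays the difference of 1.13 did not pass (adjusted p = 0.51).

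Npc1 (10457508), which exports cholesterol from lysosomes, read 8.95 and 9.48 in WT, 10.04 and 9.43 in Batf3 KO and 10.37 and 10.42 in Id2 KO Zbtb46-GFP+ cells, against 8.96 to 9.53 in CDPs. The 2 Id2 KO arrays were the highest of the 12. The difference from WT was 1.18 (limma adjusted p = 0.0324) and that from Id2 KO CDPs 1.14 (adjusted p = 0.0156). The first was lost without WT replicate 2 (0.19), Id2 KO replicate 2 (0.202) or Id2 KO replicate 3 (0.214) and with 15 arrays and a term (0.90, 0.0787). The second was lost without any 1 of its 4 arrays (0.0588 to 0.107). On the replicate 1 arrays Npc1 read 0.35 above WT in Id2 KO. Its partner Npc2, which hands cholesterol to it, did not pass (-0.20, adjusted p = 0.858).

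Ctsd, Tpp1 and Lgmn were the genes that had fallen in the WT step, and the WT Zbtb46-GFP+ arrays enter both comparisons. Ctsd was 1.21 above WT in Id2 KO (2.31-fold, limma adjusted p = 0.00454), Tpp1 0.90 above (adjusted p = 0.00922) and Lgmn 0.98 above (adjusted p = 0.0291). The Lgmn arrays of Id2 KO were 10.30 and 10.40, above every CDP array. None of the 3 interactions passed (adjusted p = 0.0617, 0.231 and 0.302). Ctsd lost its call without Id2 KO replicate 2 (0.0571) and with 15 arrays and a term (0.81, 0.127). Tpp1 was lost without WT replicate 2 (0.0614) or either Id2 KO array (0.0791 and 0.108). Lgmn was lost without the same arrays (0.176, 0.176 and 0.223) and with 15 arrays and a term (0.66, 0.208). On the replicate 1 arrays, Ctsd and Lgmn read the same in Id2 KO and WT, and Tpp1 read 0.38 higher in Id2 KO.

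Within the Id2 KO step, Ctsb, Grn and Gusb also passed narrowly. Ctsb (10415844), an abundant cysteine protease, read 11.11 and 11.10 in CDPs and 11.65 and 11.71 after (0.58, limma adjusted p = 0.0382). Grn (10381588), progranulin, read 12.17 and 12.08 before and 12.70 and 12.62 after (0.54, adjusted p = 0.0486). Gusb (10534102), beta-glucuronidase, fell from 10.36 and 10.19 to 9.63 and 9.76 (-0.58, adjusted p = 0.0476). Each of the 3 was lost without any 1 of the 4 arrays, with adjusted p from 0.113 to 0.225, 0.135 to 0.277 and 0.0769 to 0.291. Ctsb and Grn were also lost with 15 arrays and a term (0.0543 and 0.144), and Gusb with an intensity trend (0.0513). None of these genes passed against WT at the later stage (adjusted p = 0.103, 0.28 and 0.121).

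Summed markers of several other cell types moved with the Id2 KO rises, though not every gene on each list did. The summed signal of 12 neutrophil and granulocyte precursor genes was 17169 to 18061 in WT, 23602 to 31817 in Batf3 KO and 43471 to 45176 in Id2 KO Zbtb46-GFP+ cells, against 22546 to 38781 in CDPs. That of 7 plasmacytoid dendritic cell genes was 3805 to 5471 in WT, 5924 to 9211 in Batf3 KO and 16213 to 17759 in Id2 KO. That of 4 erythroid genes, measured of 8 listed, was 452 to 648 in WT, 499 to 697 in Batf3 KO and 1172 to 1213 in Id2 KO. Of these, Tfrc had mean log2 signals of 8.17 in WT and 9.85 in Id2 KO, and Car1 6.93 and 7.23. Klf1 (5.00 and 4.84) and Epor (6.51 and 6.47) did not read higher in Id2 KO. B-lineage genes (6 measured) summed to 611 to 641 in WT and 832 to 921 in Id2 KO, and T and NK genes (6 measured) to 325 to 362 and 433 to 470. Among the T and NK genes, Nkg7 had mean log2 signals of 6.32 in WT and 7.74 in Id2 KO, and Cd2 5.56 and 5.57. Cd3e (7.03 and 6.85), Cd3g (5.06 and 4.78), Ncr1 (4.87 and 4.79) and Klrb1c (4.43 and 4.18) read lower in Id2 KO. The 11 monocyte and macrophage genes summed to 9149 to 9501 in WT and 9152 to 9566 in Id2 KO, but single genes moved in opposite directions. F13a1 had mean log2 signals of 7.38 in WT and 9.24 in Id2 KO, and Csf1r 9.11 and 10.26. Cd14, Fcgr1, C5ar1, Ms4a7 and S100a4 also read higher in Id2 KO. Ccr2 (11.84 and 10.98), Adgre1, Mertk and Lyz2 read lower. The part of these cells in the rises of Cd63, Ctsl, Ctsd, Npc1, Lgmn and Tpp1 was not tested, and no marker can be called absent from these signals.

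Between the knockouts, and in CDPs, no gene of the 39 passed. At the later stage, setting the knockouts against each other gave 0 of 39, against 0.592% of all genes (0.261% higher in Id2 KO, 0.331% lower). Ctsl was nearest (0.92, limma adjusted p = 0.052). At an unadjusted p under 0.05 in limma there were 8. Shares of all genes at an unadjusted p are not given here, and the 0.592% is for an adjusted p, so it is no background for the 8. With an intensity trend in limma the count at an adjusted p was also 0, and under 75th-percentile centring it was 1. In CDPs, Batf3 KO against WT gave 0 of 39, against 0.0502% of all genes (0.0351% higher, 0.015% lower), with Ctsl alone at an unadjusted p under 0.05. Id2 KO against WT in CDPs gave 0, against 0.0251% of all genes (0.0201% higher, 0.00502% lower), and 0 at an unadjusted p under 0.05. The differences in CDPs lay between -0.17 and 0.40 in Batf3 KO and between -0.19 and 0.56 in Id2 KO. The interactions passed for 1 gene in Batf3 KO, against 0.0953% of all genes (0.015% higher, 0.0802% lower). They passed for 2 genes in Id2 KO, against 0.321% (0.115% higher, 0.206% lower). Under 75th-percentile centring the Id2 KO interactions numbered 4, 2 higher and 2 lower.

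In none of the 10 comparisons did 15 of the 39 genes pass: Ctsa, Ctse, Ctsk, Ctsz, Galc, Gla, Hexa, Lipa, Mcoln1, Neu1, Npc2, Plbd2, Ppt2, Scarb2 and Tfeb. Their WT steps ran from -0.51 for Ctsa to 0.91 for Lipa. Ctsa, the carboxypeptidase that shields Neu1 and Glb1 in a complex, read 9.97 and 10.53 in WT and 11.04 and 10.97 in Id2 KO Zbtb46-GFP+ cells (0.76, limma adjusted p = 0.0804). Scarb2, which carries glucocerebrosidase to lysosomes, read 0.44 higher after the WT step (adjusted p = 0.0881). Ctsk and Galc stayed under the median log2 signal of all genes, 6.91, in every group, with arrays at 5.52 to 5.94 and 4.94 to 5.67. A p that misses the threshold does not show that these genes were equal between groups.

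The partners of these enzymes were read from lists written for this purpose with earlier results known. Among 25 other lysosomal hydrolases measured of 30 listed, 5 rose, where 4.71% of all genes did, and 2 fell, where 6.38% did. Their median in the WT step was 0.04. Pla2g15, a lysosomal phospholipase, fell by 1.78 (limma adjusted p = 1.74e-05), and the sulfatases Ids and Arsb rose by 1.69 (0.00134) and 1.41 (0.000145). Against WT in Zbtb46-GFP+ cells, 3 rose in Id2 KO (1.09% of all genes did), Ctsw by 1.29 (0.00368), Galns by 0.82 (0.0348) and Pla2g15 by 0.71 (0.0244), and none passed in Batf3 KO. Ctsw, a cathepsin of lymphoid cells, also rose against Batf3 KO (1.03, 0.0307). With 15 arrays and a term these 4 knockout calls were lost (adjusted p = 0.0716, 0.219, 0.176 and 0.31). Leaving out any 1 of the 4 arrays ended the Galns and Pla2g15 calls (0.0804 to 0.283 and 0.0553 to 0.204), and Ctsw against Batf3 KO was lost without either Batf3 KO array (0.14 and 0.235) or Id2 KO replicate 2 (0.329).

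Of 24 membrane and transport proteins measured, 3 rose in the WT step (4.71% of all genes) and 2 fell (6.38% of all genes). Slc15a3, a carrier of histidine and peptides, rose by 1.15 (limma adjusted p = 0.00864), Cln3 rose by 0.95 (0.02) and the sialomucin Cd164 fell by 0.81 (0.0408). Slc15a3 and Cln3 lost the call without WT CDP replicate 2 (0.0537 and 0.127) or WT Zbtb46-GFP+ replicate 3 (0.0697 and 0.113), and Cd164 without either WT CDP array (0.206 and 0.0936) or WT Zbtb46-GFP+ replicate 2 (0.272). In Id2 KO over WT, 4 of the 24 rose, where 1.09% of all genes did. Slc15a3 rose by 1.36 (0.0128), Cd164 by 1.21 (0.0199), the nucleoside carrier Slc29a3 by 1.17 (0.00316) and the channel Tpcn1 by 0.76 (0.047). Of these, Slc29a3 kept its call with each array left out (at most 0.0405), while the other 3 lost it without either Id2 KO array (0.107 to 0.332) or WT replicate 2 (0.0845 to 0.133). Tpcn1 was also lost without WT replicate 3 (0.18) and under 75th-percentile centring (0.0601), and Slc15a3 and Tpcn1 with 15 arrays and a term (0.152 and 0.187).

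Of 17 subunits measured of the proton pump that acidifies the lysosome, Atp6v0a2 alone passed in the WT step, where it rose (0.84, limma adjusted p = 0.0113). Over all genes 11.1% passed in that step, so 1 of 17 is no more than that share. It lost that call without WT CDP replicate 2 (0.0676) or WT Zbtb46-GFP+ replicate 3 (0.0833). Atp6v0a2 was the 1 subunit to pass in Id2 KO against WT (1.81% of all genes did), where it was lower (-0.81, 0.0499), a call lost without WT replicate 3 (0.259) or either Id2 KO array (0.183 and 0.373) and with the mean of its probe sets (-0.49, 0.0701). Of 22 sorting genes, 2 rose in the WT step (4.71% of all genes) and 3 fell (6.38% of all genes). Lyst, mutated in the beige mouse, rose by 1.57 (0.00407), the receptor Sort1 fell by 1.14 (0.0115) and Gnptab, which makes the mannose 6-phosphate tag, fell by 0.87 (0.00137). Sort1 lost its call without either WT CDP array (0.0625 and 0.053) or WT Zbtb46-GFP+ replicate 2 (0.0847). No sorting gene passed in a knockout against WT at the later stage.

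Of 10 protease inhibitors measured, 1 rose in the WT step (4.71% of all genes) and 2 fell (6.38% of all genes). Cst7, cystatin F, which holds cathepsins such as Ctsc in check inside granules, fell by 3.04 (limma adjusted p = 7.83e-06), Serpinb1a, an inhibitor of neutrophil serine proteases, fell by 2.41 (5.8e-05), and the secreted cystatin Cst3 rose by 0.66 (0.00449). Id2 KO was above WT for 2 of the 10, Serpinb1a (1.68, 0.00328) and Cst7 (1.00, 0.0412), where 1.09% of all genes rose. The Cst7 call was lost without any 1 of the 4 arrays (0.0646 to 0.412) and with 15 arrays and a term (0.0529). The Serpinb1a interaction of Id2 KO with stage was 1.82 (0.0455), lost without any 1 of its 8 arrays (0.0626 to 0.207). The neutrophil and granulocyte sums given above moved with both genes, and their part in these values was not tested.

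Of 22 genes of the TFEB family and the nutrient-sensing machinery on the lysosome, none rose and 2 fell in the WT step. Over all genes 11.1% changed and 6.38% fell, so the list's count is near the background. Tfec, a relative of Tfeb, fell by 1.98 (limma adjusted p = 0.000211), and Mitf by 0.58 (0.0352). Tfec also fell in Batf3 KO (1.56, 0.0016) and Id2 KO (2.25, 0.000217). The Mitf call was lost without WT CDP replicate 1 (0.302) or either WT Zbtb46-GFP+ array (0.177 and 0.0612), and also under 75th-percentile centring (0.0795), with the mean of its probe sets (0.157) and with an intensity trend (0.0526). The 8 MHC class II partners measured all rose in each genotype, where 4.71%, 3.87% and 3.84% of all genes did, with a median of 5.06 in WT. Cd74, the invariant chain that Ctss and Ctsl cut, rose by 7.17 in WT (7.28e-09), H2-Aa by 6.48 (4.84e-07) and H2-Eb1 by 5.73 (7.2e-09). Ciita, the activator of these genes, was 0.97 lower in Id2 KO than in WT (0.018), a call lost without WT replicate 3 (0.121) or Id2 KO replicate 3 (0.192) and with 15 arrays and a term (0.166).

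The 2 arrays of a group differed in 1 direction for most of the 39 genes. In each group the array with the higher 75th percentile over all probe sets also read higher for 33, 30 and 33 of the 39 genes in WT, Batf3 KO and Id2 KO CDPs, and for 33, 33 and 24 in the Zbtb46-GFP+ groups. Over all genes, 50.4% to 54.9% read higher on that array in the CDP groups, while in WT Zbtb46-GFP+ cells 55.6% read higher on the other one. With a block for these 2 sets of arrays, the counts of the 39 were 23 in the WT step (24.2% of all genes passed), 17 in Batf3 KO (17.5%) and 21 in Id2 KO (16.2%). They were 5 for Batf3 KO over WT (1.25%) and 17 for Id2 KO over WT (6.08%), so calls over all genes rose in number as well. The 2 sets were formed from the arrays' own 75th percentiles, so this block takes out spread by the way it was made. Its calls are given as a setting and not as support. The part of this spread in each result was not tested. On the 3 replicate 1 arrays, Batf3 KO and WT read the same for 19 of the 39 genes and Id2 KO and WT for 13. Over all genes 74.9% and 62.5% were tied. Of the untied genes among the 39, 7 read higher and 13 lower in Batf3 KO, and 10 higher and 16 lower in Id2 KO. The median difference from WT was 0 for both knockouts there, against 0.13 and 0.15 on the arrays used for the tests. The lean of the 39 genes to higher values in the knockouts was thus not seen on the replicate 1 arrays.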

How the data were processed

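The 15 Affymetrix arrays carry 28853 probe sets. The deposited unit is intensity, the linear signal per probe set. The authors made it with Affymetrix Expression Console and RMA, per the submitters' processing notes, whose versions and settings are not given in the sources used here. Log2 was taken of the deposited signal. Of the probe sets, 21789 name a single gene, 1621 several and 5443 were not in the annotation. The single-gene probe set with the highest mean was used, which gave 19938 genes, and 21698 single-gene probe sets were matched to RefSeq. The number of arrays limits the precision.

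The 6 group means were fitted to 12 arrays with limma 3.58.1 in R 4.3.3 (6 residual degrees of freedom), two-sided, without trend. The p-values were adjusted by Benjamini-Hochberg over all genes within each of 10 comparisons, with a threshold of 0.05. The 3 arrays on another scale were left out of that fit. On simulated data for the WT step, 72 of 100 genes changed by 1 log2 unit and 98 of 100 changed by 2 were called, with 14 false calls among 184. The simulated noise was independent for each gene and array, without shifts shared across an array. Fewer genes changed there than were called in the real WT step, so these rates do not carry over to the real arrays.

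The 39 genes and all lists were chosen with earlier results of these data known. Genes are named by rule, most with their array values and some with a range or only part of the arrays. The rule took the 10 largest rises and 6 largest falls in the WT step, genes called in a knockout comparison or interaction, and Tfeb, Lamp1 and Ctsl. From each list of partners, the 3 largest called changes in the WT step and those called in a knockout comparison are named. Other genes named (Lipa, Psap, Lamp2, Ctsa, Scarb2, Npc2, Ctsb, Grn, Gusb, Ctsk and Galc) were chosen after their values were seen. Over all 12 arrays the CDP marker list summed to 13178 to 21055. Promoters came from RefSeq (GRCm38.p6) and were searched for letters only. Alternatives were the choice of arrays, centring, probe set rule, trend, a filter on dim genes, blocks and leaving out each array.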

Additional observations from a re-analysis of the deposited data

Results flagged for a closer look

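Ppt1 differed between genotypes in its step from CDP to Zbtb46-GFP+ cells by the test of the difference itself. The interaction was -1.97 for Batf3 KO (limma adjusted p = 0.00648) and -1.88 for Id2 KO (adjusted p = 0.00548). Both use the same WT arrays. WT Zbtb46-GFP+ cells were above both knockouts on each of the 2 arrays per group, and also on the replicate 1 arrays that did not enter the fit.

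Naaa differed in the same way for Id2 KO, with an interaction of -3.18 (limma adjusted p = 0.0368). Serpinb1a, a protease inhibitor outside the list of 39, had an interaction of 1.82 (adjusted p = 0.0455). Both Id2 KO arrays were on the same side of both WT arrays for these genes at the later stage. The Naaa call was lost on leaving out 6 of its 8 arrays, and the Serpinb1a call on leaving out any of its 8.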

How the results depend on the processing

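Of 84 named calls, 41 were kept with every single array left out and 68 with all 15 arrays and a term for the 3 on another scale. With 15 arrays and no term, no gene of the 39 passed in any comparison (0), and 19 named results turned, as the median of all genes in the WT step fell to -0.67. In WT these were Ctss (-0.29), Asah1 (-0.12), Ctsh (-0.29), Tfeb (-0.45), Psap (-0.37), Slc15a3 (-0.089), Cln3 (-0.35) and Atp6v0a2 (-0.45). In Batf3 KO they were Ctsh (-0.17), Ctss (-0.38), Asah1 (-0.30) and Man2b1 (-0.14), and in Id2 KO Ctsb (-1.07), Ctsh (-0.20), Ctsl (-0.13), Ctss (-0.40), Npc1 (-0.017), Man2b1 (-0.34) and Grn (-0.51).

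Replicate numbers were not taken as pairs, since only 2 per comparison remain on 12 arrays. There, same-numbered residuals correlated at -0.55 and -0.42 between WT and the knockouts at the later stage, at 0.48 between the knockouts, and at 0.53 to 0.68 in CDPs. A replicate block on 12 arrays gave 2 genes for Batf3 KO over WT, 1 for Id2 KO over Batf3 KO, and 2 and 5 for the interactions of Batf3 KO and Id2 KO. With that block 10 named calls missed the threshold: in WT Lgmn (adjusted p = 0.0985), Gaa (0.0851), Lamp1 (0.0634), Psap (0.0712), Cd164 (0.12) and Mitf (0.135), in Batf3 KO Asah1 (0.0701), and in Id2 KO Ctsb (0.0715), Gaa (0.109) and Gusb (0.0624). Tfeb passed in WT (0.61, 0.0406). The block of the 2 sets of arrays, which is the crossed numbering at the later stage, gave 17 in the Batf3 KO step, 5 and 17 for Batf3 KO and Id2 KO over WT, 3 between the knockouts, and 2 and 7 for the interactions. A replicate block on 15 arrays left 0 in every comparison and turned 24 named results, with the median of all genes in the WT step at -1.04. In WT these were Ctsc (-0.17), Man2b1 (-0.37), Ctss (-0.90), Asah1 (-0.61), Ctsh (-0.87), Tfeb (-0.92), Psap (-0.93), Arsb (-0.41), Slc15a3 (-0.87), Cln3 (-1.01), Atp6v0a2 (-1.10) and Cst3 (-0.069). In Batf3 KO they were Ctsh (-0.75), Ctss (-0.98), Asah1 (-0.79) and Man2b1 (-0.66), and in Id2 KO Ctsb (-1.86), Ctsh (-0.78), Ctsl (-0.52), Ctss (-1.01), Naaa (-0.50), Npc1 (-0.51), Man2b1 (-0.85) and Grn (-0.98). The 3 arrays on another scale enter both settings on 15 arrays.

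Centring on the 75th percentile, and leaving out dim genes, each gave 2 genes for Batf3 KO over WT, 1 between the knockouts and 4 for the Id2 KO interaction. With single arrays left out, the counts ran from 11 to 16 in the WT step, 7 to 8 in Batf3 KO, 4 to 9 in Id2 KO, 3 to 8 for Id2 KO over WT, 0 to 1 for the Batf3 KO interaction (0 without Batf3 KO CDP replicate 2) and 1 to 3 for that of Id2 KO. The Id2 KO interaction count was 1 without WT CDP replicate 2 or any of the 4 Zbtb46-GFP+ arrays compared. Of the 86 named results, an intensity trend weakened 3, the mean of all probe sets 2, and 75th-percentile centring 6. With 2 arrays a group, small changes could be missed, and signal near background limits Ctsk and Galc.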
